A study of Daphnia magna with 48 samples.

Results

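Gene expression was compared between young Daphnia magna kept in isobutanol and the control animals of the same experiment, on 6 of the 48 arrays of the series. The arrays were chosen by their titles, IB_EC10 (3 arrays) for exposed animals and IB_CONT (3 arrays) for controls, and all 6006 Daphnia probes of the deposited table were used. Exposure of newborn water fleas lasted 96 h, at the EC10 of isobutanol, a low effect concentration that the submitters took from immobilisation tests. Controls spent the same 96 h in reconstituted fresh water without the chemical. Each replicate was the whole-body RNA of 30 pooled animals at day 4, so fewer cells of a type and less RNA per cell cannot be told apart. Both groups were fed the same 2 green algae. The 42 remaining arrays held 7 further chemicals, each with 3 exposed and 3 control arrays of its own, and their 21 control arrays served here as a measure of the usual control level. Labels for the anilines state a renewal of the medium every 48 h, and those for isobutanol state none.

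Isobutanol is a small aliphatic alcohol that the series uses as a non-polar narcotic, a chemical whose baseline toxicity comes from dissolving in cell membranes. Daphnia magna reproduces clonally and moults throughout life, and its first days of juvenile growth are marked by moulting, feeding and the onset of ovary development. Whole-body RNA at this age therefore mixes gut, cuticle-forming epidermis, muscle, fat cells and nervous tissue. The sources used here pair no probe with a gene, so probes are named by their ID and no function is given for them.

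Each array measured a sample and a universal reference in opposite dyes, and its value for a probe is the log2 ratio of the 2. That base was inferred from the values. The ratio is likely sample over reference, which no label settles. Were the sign turned, every rise given here would read as a fall. The sample was in Cy3 for exposed replicates 1 and 2 and in Cy5 for exposed replicate 3, and in Cy3 for control replicate 1 and in Cy5 for control replicates 2 and 3. Dye and exposure thus overlapped in part, and dye was a term in the model. Ratios spread over probes with an SD of 0.678, 0.597 and 0.635 on the exposed arrays and 0.534, 0.611 and 0.563 on the control arrays. These 6 arrays were wide ones, since the 21 other control arrays had SDs of 0.237 to 0.488. Ratio tables hold no brightness, so the distance of a probe from background is unknown, and precision is limited by there being 3 arrays a group. P-values rest on the spread between replicate pools, pooled over all 16 groups of the series.

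The first question was how large the response was and in which direction it ran. The log2 fold change of exposed over control animals had a median of -0.01 over the 6006 probes, and its quartiles were -0.16 and 0.16. Limma called 759 probes at an adjusted p under 0.05, which is 12.6% of those tested, with 378 higher (6.29%) and 381 lower (6.34%). Rises were more often large than falls. A log2 change of at least 0.5 was seen upwards on 464 probes (7.73%) and downwards on 318 (5.29%), of which 295 (4.91%) and 217 (3.61%) were called. A change of at least 2-fold was seen upwards on 127 probes (2.11%) and downwards on 72 (1.2%), of which 107 (1.78%) and 65 (1.08%) were called. Called risers had a median log2 change of 0.72, and called fallers one of -0.55. The largest changes reversed this balance, since 9 probes rose (0.15%) and 16 fell (0.266%) by at least 4-fold. The 3 exposed and 3 control arrays did not overlap for 1970 probes (32.8%), and for 704 of the 759 called ones. The typical 95% confidence interval of a change was ± 0.28, and the smallest change called was 0.24.

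**Figure D1:**
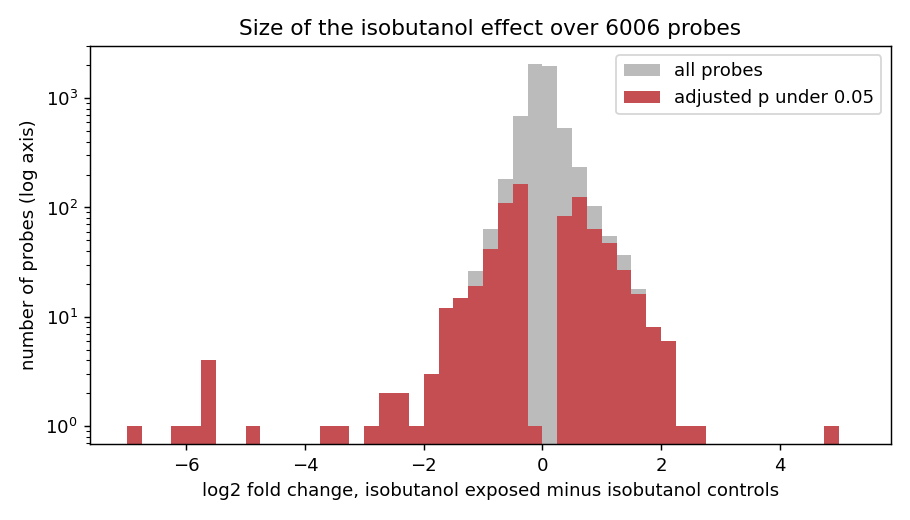
Number of probes (log axis) by log2 fold change of isobutanol-exposed over isobutanol control animals, in steps of 0.25; grey bars count all 6006 probes and red bars the 759 with an adjusted p under 0.05. Called falls reach -6.76, with a separate cluster beyond -4, and called rises reach 4.90.

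The number of calls depended on the scaling of the arrays and on single arrays. Scaling the arrays to equal spread left 222 calls, quantile normalization left 142, array weights gave 1755, and leaving out control replicate 1 or 2 gave 505 or 481. Of the 222 and 142 calls, 221 and 137 were among the 759 with the same sign. None of the 759 changed sign under either scaling, and 322 of them (158 higher and 164 lower) were called whichever of the 6 arrays was left out.

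The strongest response on the values as deposited was a deep fall of the ratio on a small set of probes. Probe DM01862P3 read -7.40, -7.05 and -6.67 in exposed animals, against -0.01, -0.29 and -0.13 in controls. Every exposed array lay more than 6 log2 units below every control array, and the change was -6.76 ± 0.82 (SE; limma, adjusted p = 2.16e-07). Probe DM03618P2 read -6.88, -6.35 and -5.67 in exposed animals and 0.13, -0.22 and 0.07 in controls, with a change of -6.09 ± 0.88 (adjusted p = 4.66e-06). Probe DM09000P2 read -6.51, -6.15 and -5.18 in exposed animals and 0.23, -0.18 and 0.01 in controls, a change of -5.72 ± 0.73 (adjusted p = 5.12e-07). These probes shared a control level close to 0, which means close to the reference, with control replicates within 0.5 of each other. Probe DM11630P3 read -7.04, -5.38 and -4.65 in exposed animals, a wider spread, and 0.25, -0.20 and 0.13 in controls. Its change was -5.52 ± 0.75 (adjusted p = 1.81e-06).

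A second set fell from a less even control level. Probe DM08009P2 read -6.90, -6.12 and -6.10 in exposed animals, against 0.20, -1.06 and -0.49 in controls. Probe DM07984P1 read -6.94, -5.56 and -6.02 in exposed animals, against 0.27, -1.07 and -0.51 in controls. Probe DM02267P1 read -5.91, -5.15 and -5.02 in exposed animals, against 0.13, -1.15 and -0.54 in controls. In all of them control replicate 1 was the highest and control replicate 2 the lowest, and the control values of one probe nearly repeated those of the next. Their changes were -5.92 ± 0.75, -5.75 ± 0.74 and -4.84 ± 0.60, with adjusted p-values of 4.45e-07, 6.23e-07 and 3.92e-07. Probe DM00126P2 read -4.43, -2.81 and -4.75 in exposed animals and 0.34, -1.27 and -0.77 in controls, in the same order of the controls (change -3.40 ± 0.63, adjusted p = 0.000196). Whether these IDs stand for one gene or several is not given in the sources used here, so probes that move alike may not be independent.

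These 8 fallers were named as the largest falls that started inside the range spanned by the means of the other 7 control groups, so their start there is part of the choice. Of the 16 called fallers of at least 4-fold, 11 started inside it and 5 above it. For DM01862P3 that range was -0.63 to 0.13, and the isobutanol control mean was -0.14 ± 0.14 (SD, n = 3). Exposed animals lay below the range on each of the 8 probes. Against the mean of the other control groups the exposed level of DM01862P3 differed by -6.74, close to the change of -6.76 against its own controls. The fall was shared with further chemicals. On 7 of the 8 probes 4 other chemicals were called lower as well, namely 3-chloropropanol, 2,3,4-trichloroaniline, 3,4-dichlorophenol and cadmium, and on DM00126P2 it was 3, without 3,4-dichlorophenol. None of the 8 lost its call in the 14 alternative fits, but the size of the falls depended on the scaling. Quantile normalization gave -3.68 for DM01862P3, -2.89 for DM03618P2, -2.88 for DM08009P2, -2.80 for DM07984P1, -2.71 for DM09000P2, -2.68 for DM11630P3, -2.32 for DM02267P1 and -2.01 for DM00126P2. Probe DM01559P4, singled out after its values were seen, had a change of -5.53. Its controls averaged 0.17 and the highest other control group 0.15, and their difference from the mean of the other groups was 0.38 (adjusted p = 0.572).

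The largest rises did not reach the size of the largest falls, and a single probe stood apart among them. Probe DM07052P1 read 3.57, 3.10 and 3.61 in exposed animals, against -1.32, -1.48 and -1.84 in controls. The rise was 4.90 ± 0.43 (adjusted p = 3.5e-10), against 2.54 for the next largest. Exposed animals averaged 3.43 ± 0.28 (SD, n = 3), far above the highest of the other control groups, at 0.94, and its controls averaged -1.55 ± 0.27 (SD, n = 3), just under the lowest of them, at -1.52. None of the 7 other chemicals was called on this probe. With quantile normalization the rise of DM07052P1 was 2.79, and it stayed called.

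The 8 named probes with the largest rise from a control level inside the usual range differed in how firmly they were measured. Probe DM05690P1 read 2.65, 2.37 and 1.73 in exposed animals and 0.11, 0.14 and 0.26 in controls, a rise of 2.08 ± 0.19 (adjusted p = 9.59e-10). Probe DM02491P3 read 1.96, 2.35 and 2.40 in exposed animals and 0.27, 0.18 and 0.35 in controls, a rise of 1.83 ± 0.21 (adjusted p = 1.06e-07). On both the control arrays were close together and the exposed arrays were well apart from them. Probe DM07140P3 read 2.07, 1.85 and 2.30 in exposed animals and 0.39, -0.08 and -0.34 in controls, a rise of 2.12 ± 0.33 (adjusted p = 1.79e-05). Probe DM08380P2 read 1.41, 1.22 and 1.18 in exposed animals and -0.16, -0.33 and -0.80 in controls, a rise of 1.67 ± 0.32 (adjusted p = 0.000263). With quantile normalization DM02491P3, DM07140P3 and DM08380P2 no longer passed, at adjusted p-values of 0.0941, 0.1 and 0.143, and the rise of DM05690P1 was 0.97. DM05690P1 was also called higher with cadmium, by 1.51, and DM02491P3 and DM07140P3 with trichloroaniline, by 0.75 and 1.64. DM08380P2 was called higher with both, by 1.54 with cadmium and 2.18 with trichloroaniline. On DM08380P2 the isobutanol effect was not called different from the mean effect of the other chemicals (limma, adjusted p = 0.154). On DM05690P1, DM02491P3 and DM07140P3 it was (6.11e-08, 9.22e-06 and 0.00205).

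For 3 probes the control arrays disagreed among themselves. Probe DM12799P1 read 0.88, 0.70 and 0.83 in exposed animals, against -1.28, 0.14 and -1.12 in controls. Probe DM06989P1 read 1.93, 1.72 and 2.15 in exposed animals, against 0.12, 0.93 and -0.03 in controls. Probe DM07944P2 read 2.23, 2.07 and 2.04 in exposed animals, against 0.44, 1.05 and 0.08 in controls. Exposed replicates lay within 0.5 of each other, while control replicate 2 stood above the other controls by at least 0.6 each time. Their rises of 1.84 ± 0.57, 1.75 ± 0.55 and 1.70 ± 0.50 had adjusted p-values of 0.0266, 0.0286 and 0.0188. These calls were fragile: DM06989P1 was not called without the dye term (0.0759), with equal spread (0.223), with quantile normalization (0.832) or with any array but control replicate 2 left out (0.066 to 0.124). DM12799P1 was lost without the dye term (0.158), with equal spread (0.249), with quantile normalization (0.421) and without exposed replicate 1 (0.102), exposed replicate 2 (0.0842), control replicate 1 (0.0692) or control replicate 3 (0.133). DM07944P2 was lost with equal spread (0.176), with quantile normalization (0.783) and without exposed replicate 1 (0.0693), exposed replicate 2 (0.056) or control replicate 3 (0.0987). DM12799P1, DM06989P1 and DM07944P2 were also called higher with 3-chloropropanol, by 2.78, 2.15 and 1.99, each more than with isobutanol. Their isobutanol effects were not called different from the mean effect of the other chemicals (limma, adjusted p = 0.344, 0.473 and 0.494). The last of the 8, DM12053P2, read 1.17, 1.06 and 1.50 in exposed animals and -0.74, -0.71 and -0.95 in controls, a rise of 2.06 ± 0.29 (adjusted p = 3.21e-06). Its exposed mean of 1.24 lies inside the usual range only because the 3-chloropropanol controls stood at 1.29, and its call ended with quantile normalization (0.143).

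Of the 9 risers of at least 4-fold, 5 crossed the whole usual range, from below its lowest control group to above its highest. Beside DM07052P1 these were DM02818P3, DM06883P1, DM10275P3 and DM06837P1, which were singled out after their values were seen. DM02818P3 read 1.32, 1.43 and 1.46 in exposed animals, against -1.59, -1.40 and -0.61 in controls, a rise of 2.54 ± 0.20 (adjusted p = 4.88e-11). DM10275P3 read 1.28, 0.96 and 1.39 in exposed animals, against -0.98, -1.13 and -0.83 in controls, a rise of 2.22 ± 0.25 (adjusted p = 4.26e-08). For such probes the fold change against the experiment's own controls was larger than that against the usual level. The exposed level of DM02818P3 exceeded the mean of the other control groups by 1.35, and that of DM10275P3 by 1.32. DM02818P3, DM06883P1 and DM06837P1 were also called higher with 3-chloropropanol, by 1.46, 1.64 and 1.22. The same probes were called higher with 3,4-dichlorophenol too, by 1.07, 0.80 and 1.62. DM06883P1 and DM06837P1 were further called higher with 2,3,4-trichloroaniline, by 1.10 and 0.74, and DM06837P1 with cadmium, by 1.21. DM10275P3 was called with no other chemical. Probe DM03356P1, also chosen after its values were seen, was above the usual range in both groups. It read 4.50, 4.36 and 4.65 in exposed animals and 1.52, 2.23 and 2.69 in controls, while the other control groups lay between -2.07 and 0.65. Its rise was 2.18 with isobutanol, and it was also called higher with 3-chloropropanol, by 2.91, and 3,4-dichlorophenol, by 2.23.

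**Figure D2:**
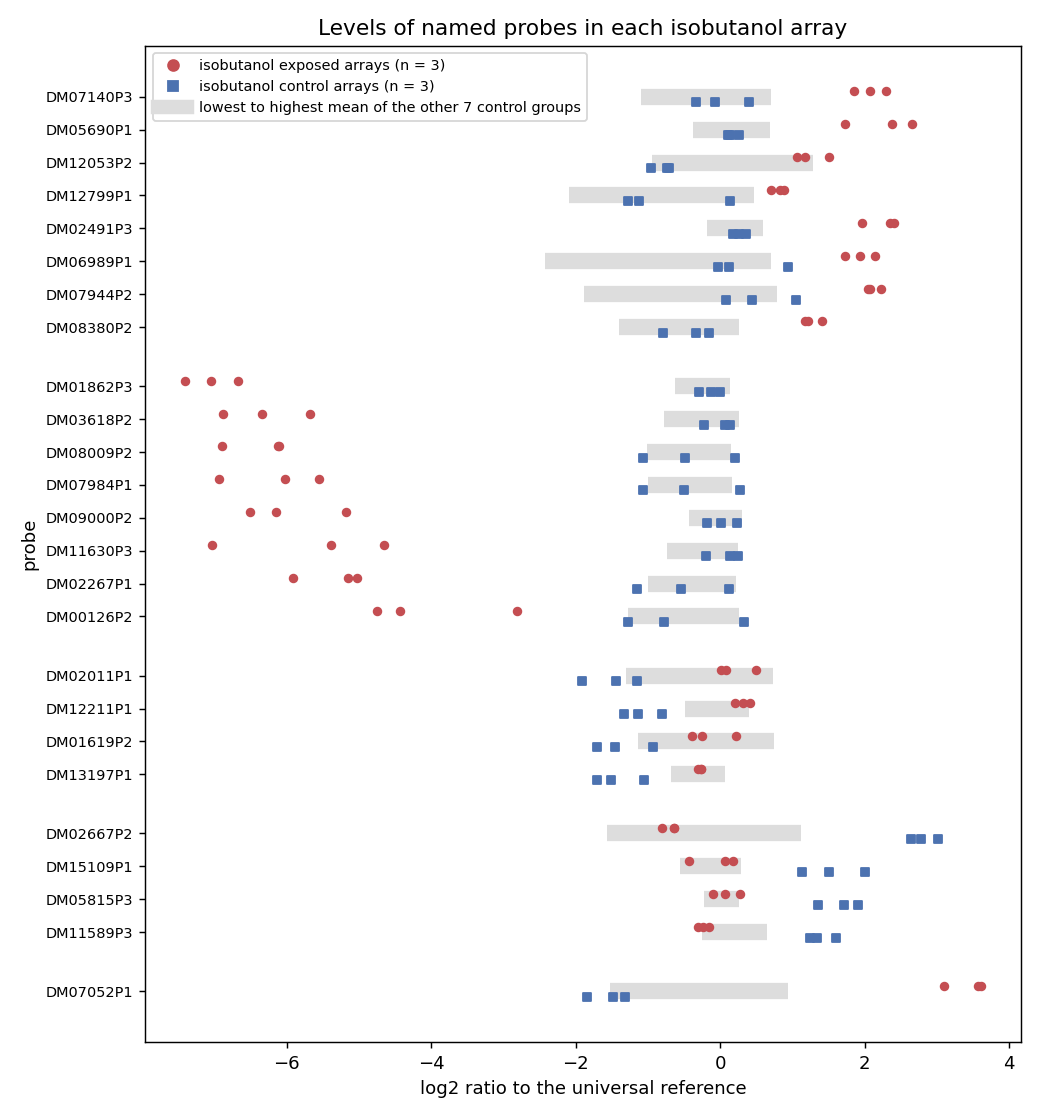
Log2 ratio to the universal reference in each isobutanol-exposed array (red circles) and each isobutanol control array (blue squares) for 25 probes, with a grey band from the lowest to the highest mean of the other 7 control groups. From the top, 8 risers and 8 fallers start inside the band, 4 risers and 4 fallers start outside it and end inside it, and DM07052P1 rises from just under the band to 3.43.

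The second question was whether the samples labelled with Cy3 and those labelled with Cy5 gave the same response. The Cy3 effect rests on exposed replicates 1 and 2 and control replicate 1, and the Cy5 effect on exposed replicate 3 and control replicates 2 and 3, so the 2 effects have no array in common. They agreed in sign on 757 of the 759 called probes, which is 99.7%, against 69.7% of all probes, although the calls were made on both sets of arrays together. Over all 6006 probes the effects correlated at r = 0.761 and rho = 0.583. This is a description over probes of the same 6 samples. The exceptions, named after their values were seen, were DM05604P1, with an effect of 0.05 in Cy3 and -0.87 in Cy5, and DM11984P1, with 0.06 in Cy3 and -1.05 in Cy5.

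Within a dye, limma called 379 probes (6.31%) in Cy3, 221 higher (3.68%) and 158 lower (2.63%), and 320 (5.33%) in Cy5, 151 higher (2.51%) and 169 lower (2.81%). Each of these has an arm of 1 array (the Cy3 control and the Cy5 exposed animals), which is assumed to vary like the other groups: the 16 residual degrees of freedom come from same-dye pairs across the whole series.

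Probes picked by one dye alone showed how well the other dye followed. In Cy3 186 probes rose by at least 2-fold, of which 177 were also higher in Cy5, 88 of them by 2-fold or more, and their median change was 1.33 in Cy3 and 0.97 in Cy5. In Cy3 80 probes fell by at least 2-fold, of which 77 were also lower in Cy5, with a median change of -1.44 in Cy3 and -1.15 in Cy5. The picked dye showed the larger median each time. Picking in Cy5 gave 133 risers, of which 132 were also higher in Cy3 (median 1.28 in Cy5 and 1.21 in Cy3). It gave 104 fallers, of which 90 were also lower in Cy3, with medians of -1.37 in Cy5 and -0.80 in Cy3. Fallers picked in Cy5 thus followed least well in the other dye.

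The difference between the 2 effects was itself tested. Limma called 0 of 6006 probes (0%) for an effect in Cy3 that differed from that in Cy5, and 211 had an unadjusted p under 0.05. A typical 95% confidence interval of this difference, for a single probe and before adjustment, was ± 0.54. Larger differences went uncalled too, -1.51 on DM11868P1 among them. The absence of calls therefore does not show that the dyes gave equal effects. Array weights gave 2 calls, and leaving out exposed replicate 1 or 2 gave 4 or 3. Among called probes the largest difference was on DM11630P3, at -6.46 in Cy3 and -4.62 in Cy5, followed by DM11868P1, at -2.30 in Cy3 and -0.79 in Cy5, and DM02267P1, at -5.66 in Cy3 and -4.18 in Cy5. DM11868P1 read -3.54, -2.62 and -2.35 in exposed animals, against -0.79, -1.68 and -1.45 in controls. Its fall of 1.50 ± 0.39 (adjusted p = 0.00812) was lost with equal spread (0.0549), with quantile normalization (0.482), without exposed replicate 1 (0.0779) and without control replicate 1 (0.0886).

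**Figure D3:**
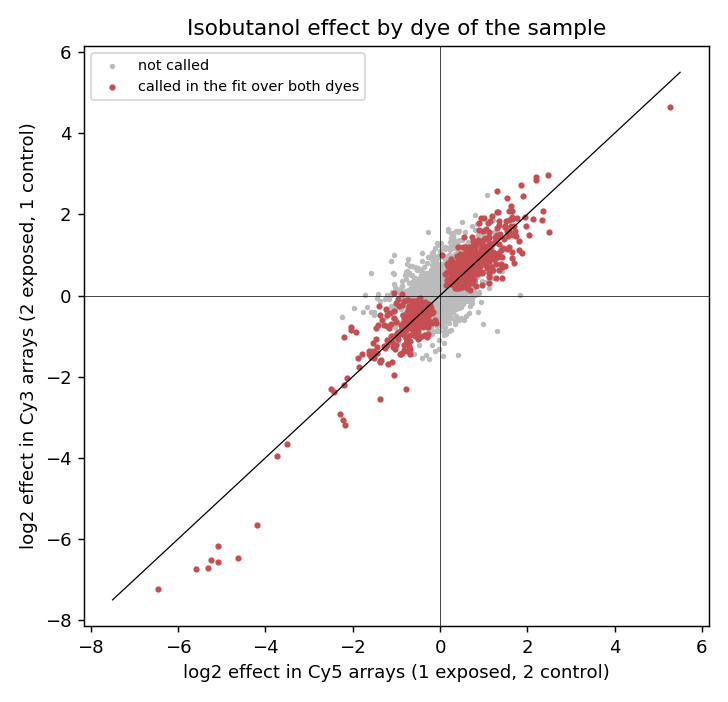
Isobutanol effect (log2, exposed minus control) of each probe in the Cy3 arrays (vertical axis) against the Cy5 arrays (horizontal axis), with the line of equal effects; red points are the 759 probes called in the fit over both dyes. All red points except 2 lie in the quadrants of equal sign, and the 8 largest falls lie below the line, that is, they were deeper in Cy3.

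Pairs of arrays showed how alike the isobutanol arrays were within and between groups and dyes. The exposed arrays correlated with each other at 0.946 within a dye and at 0.892 and 0.896 across dyes. The control arrays correlated with each other at 0.928 within a dye and at 0.85 and 0.807 across dyes. Between exposed and control arrays the correlation was 0.575 to 0.72, so every pair within a group was more alike than any pair between groups. Control replicate 1, the only control array with the sample in Cy3, was the least like its own group. The SD over probes of the difference between 2 arrays was 0.225 to 0.342 within groups and 0.466 to 0.546 between them.

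The third question was how far the isobutanol controls stood from the controls of the other 7 experiments. As deposited they stood far from them in the size of their departure. By median correlation they were no less alike. Isobutanol control arrays correlated with the other control arrays at a median r of 0.138 (-0.263 to 0.603). Control arrays of different other experiments correlated with each other at a median r of 0.0969 (-0.574 to 0.823). On 3174 probes (52.8%) the isobutanol control mean was the highest (1615) or the lowest (1559) of the 8 control groups. For the other control groups this share was 34.2% for aniline, 27.2% for 4-chloroaniline, 21.9% for 3-chloropropanol and 12.9% to 17.9% for the remaining 4. The difference of the isobutanol controls from the mean of the 7 other control groups had a median absolute size of 0.22, and was at least 1 log2 unit on 319 probes. The same difference taken for each other control group had medians of 0.09 to 0.15, and reached 1 on 20 to 123 probes. This lead in size was not kept with equal spread, where the difference reached 1 on 135 probes for isobutanol, 145 for cadmium and 141 for 3-chloropropanol, with SDs over probes of 0.334, 0.348 and 0.351. With quantile normalization it reached 1 on 140 probes for isobutanol and 126 for cadmium, the next highest.

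Limma called 2476 probes (41.2%) between the isobutanol controls and the mean of the other control groups, 1336 higher (22.2%) and 1140 lower (19%). The same contrast called 12.8% of probes for the aniline controls, 11.6% for 4-chloroaniline, 6.84% for cadmium, 6.66% for 3-chloropropanol, 2% for 3,5-dichloroaniline, 1.67% for 2,3,4-trichloroaniline and 1.43% for 3,4-dichlorophenol. These tests use the spread between replicates within an experiment, not that between experiments, so they say that a group differs and not that it differs more than experiments do. The wide spread of the isobutanol arrays moved with this result. With all arrays scaled to equal spread, the isobutanol controls were outermost on 33.3% of probes, against 17.7% to 30.7% for the other groups, and 1078 probes were called, against 927 for the cadmium controls. With quantile normalization the share was 33.4%, against 17.7% to 30.9%, and 1064 probes were called, against 797 for cadmium. The isobutanol controls had the highest outermost share and the most calls of the 8 under each of the 3 scalings, by a much smaller margin under the last 2. Without control replicate 1, 2 or 3 the share was 54.2%, 51.6% and 54.5%.

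**Figure D4:**
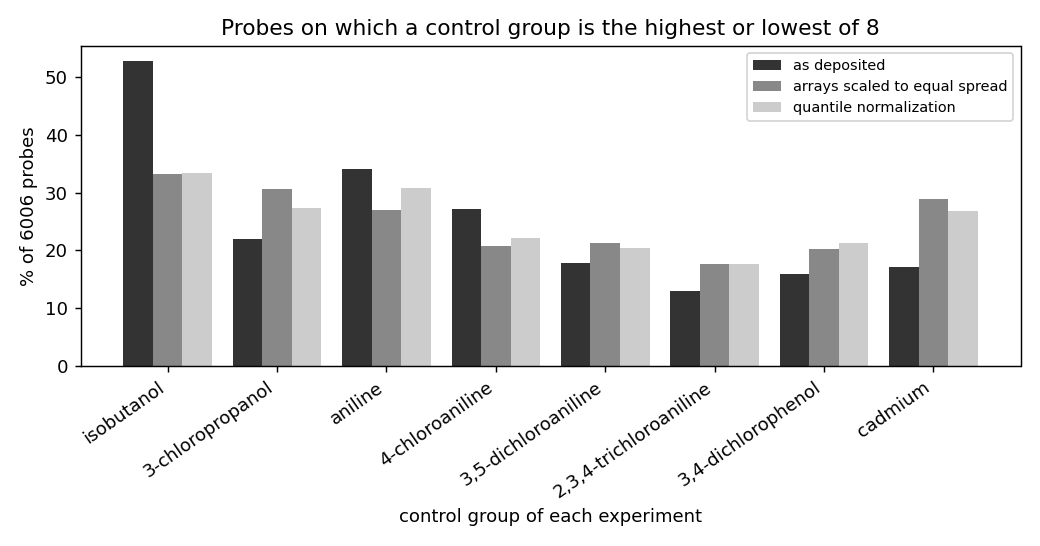
Percent of 6006 probes on which each experiment's control group had the highest or lowest mean of the 8 control groups, for values as deposited (black), after scaling arrays to equal spread (dark grey) and after quantile normalization (light grey). The isobutanol controls lead at 52.8%, 33.3% and 33.4%.

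Much of the distance was common to both isobutanol groups. Exposed animals differed from the mean of the other 7 control groups on 1851 probes (30.8%), 954 higher (15.9%) and 897 lower (14.9%), and in this contrast the chemical and the experiment cannot be told apart. Scaling to equal spread gave 1220 calls here, array weights 2851 and quantile normalization 837. Both means lay below the usual range on 887 probes and above it on 880. Among probes not called between exposed and control animals, DM05830P2 had the largest control departure. It read 3.30, 3.26 and 3.28 in exposed animals and 2.87, 3.43 and 3.21 in controls, while the other control groups lay between -1.67 and 0.76. The 2 isobutanol groups overlapped, and their difference was -0.05 ± 0.47 (adjusted p = 0.969). DM06384P3 read 3.79, 3.71 and 3.51 in exposed animals and 2.19, 3.05 and 2.83 in controls, with the other control groups between -2.22 and 0.89. Its difference of 0.79 ± 0.55 missed the threshold (adjusted p = 0.42), although its arrays did not overlap and the 6 isobutanol arrays alone gave a rise of 1.07 (adjusted p = 0.0187). DM06785P4 read 2.61, 2.49 and 2.66 in exposed animals and 2.57, 3.32 and 3.34 in controls, with the other control groups between -0.96 and 0.64. On these probes the whole isobutanol experiment stood high, whether or not the animals were exposed.

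The last question was which of the 759 changes were departures from a usual level and which were an approach to it. The usual range of a probe is taken here as the lowest to the highest mean of the other 7 control groups. The isobutanol controls enter both the call and this placement, so the counts are descriptions and are set beside those over all probes. Controls lay inside the range on 148 of the 378 risers (39.2%) and on 94 of the 381 fallers (24.7%), against 47.2% of all probes. On the values as deposited, the isobutanol controls lay above the range on 276 fallers (72.4%), against 26.9% of all probes. Risers started below the range on 187 probes (49.5%), against 26% of all probes. These shares depended on the scaling. With equal spread controls lay inside the range on 76 of 122 risers (62.3%) and 57 of 100 fallers (57%), against 66.7% of all probes. They lay above it on 41% of fallers, against 16.7% of all probes. With quantile normalization they lay inside it on 34 of 67 risers (50.7%) and 37 of 75 fallers (49.3%), against 66.6% of all probes. They lay above it on 50.7% of fallers, against 16.3% of all probes. Among each scaling's own calls, most risers and most fallers thus started outside the range as deposited and inside it with equal spread. With quantile normalization they were about evenly divided. The calls differed between scalings. On the 381 fallers called as deposited, controls lay above the range on 53.8% under either scaling, and inside it on 44.6% and 44.9%. On the 378 risers they lay inside it on 55.6% and 57.1%. Under every scaling fallers started above the range more often than all probes did.

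Where the exposed animals ended differed between risers and fallers. Of the risers 133 left the range upwards from inside it, 62 crossed it from below to above, 43 were above it in both groups, 79 entered it from below, 46 stayed below it and 15 moved within it. Of the fallers 82 left the range downwards from inside it, 51 crossed it from above to below, 11 were below it in both groups, 182 entered it from above, 43 stayed above it and 12 moved within it. As deposited, entering the range was the most frequent class of fallers, at 47.8%, and made up 20.9% of risers. With equal spread more fallers left the range (45%) than entered it (28%), and with quantile normalization the shares were 37.3% and 36%. Over all probes 6.76% left it downwards and 7.41% entered it from above with equal spread, and 5.73% and 7.76% with quantile normalization. Among all probes 11.1% had controls above the range and exposed animals inside it, and 9.86% had controls below and exposed animals inside. Leaving the range upwards and downwards made up 6.89% and 6.71% of all probes, and crossing it upwards and downwards 1.33% and 1.1%. Risers left it on 35.2% and crossed it on 16.4%, and fallers on 21.5% and 13.4%. Both means lay above it on 14.7% of all probes and below it on 14.8%. Risers stayed above it on 11.4% and below it on 12.2%, and fallers on 11.3% and 2.89%, each under the share over all probes. By distance rather than range, 257 fallers (67.5%) and 152 risers (40.2%) were closer to the mean of the other control groups in exposed animals than in controls, as were 58.9% of all probes.

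Size separated these classes. Among fallers of under 0.5 on the log2 scale 104 of 164 (63.4%) entered the range, among those of 0.5 to 1 70 of 152 (46.1%), among those of 1 to 2 7 of 49 (14.3%), and among the 16 of at least 2 only DM02667P2. Among risers the counts were 28 of 83 (33.7%), 44 of 188 (23.4%), 7 of 98 (7.14%) and 0 of 9. A smaller change can end inside the range more easily, and the size bins came from the same arrays as the classes. On the values as deposited, large changes mostly ended outside the usual range and falls of under 0.5 mostly inside it.

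**Figure D5:**
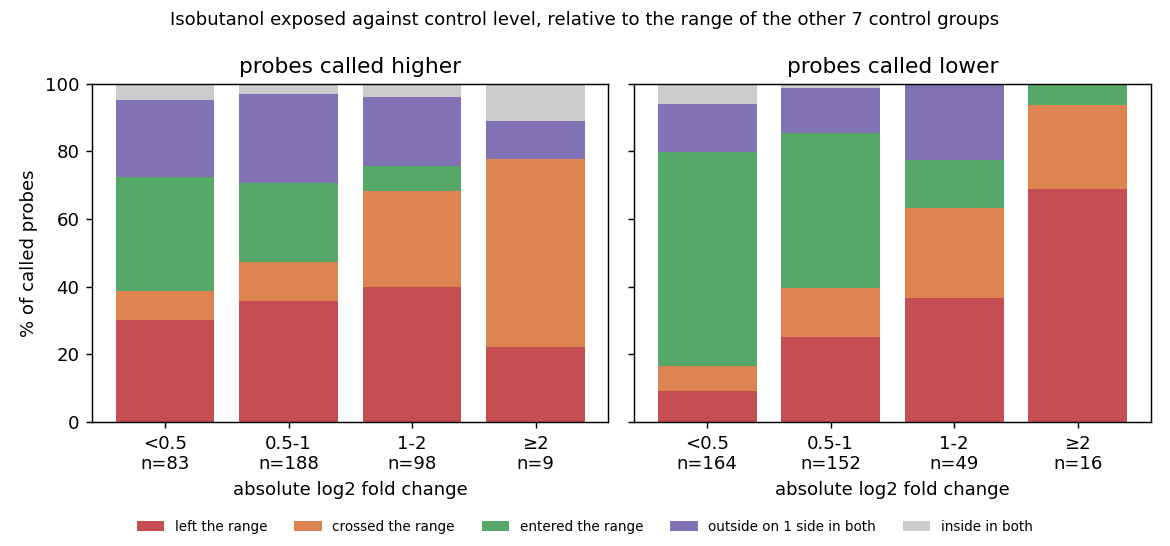
Share of called probes in each class of movement relative to the range of the other 7 control groups, by absolute log2 fold change, for the 378 probes called higher (left) and the 381 called lower (right). Entering the range (green) falls with size, from 33.7% to 0% of risers and from 63.4% to 6.25% of fallers.

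These class counts moved with the processing. With equal spread 8 of 122 risers (6.56%) and 28 of 100 fallers (28%) entered the range, and with quantile normalization 7 of 67 risers (10.4%) and 27 of 75 fallers (36%). Over all probes 6.73% entered it from below and 7.41% from above with equal spread, and 7.44% and 7.76% with quantile normalization. The share of risers with equal spread was thus near that of all probes, and the shares of fallers were above it. For the 381 fallers called as deposited, entering stood at 40.2% with equal spread and 42.3% with quantile normalization, and for the 378 risers at 19.3% and 20.9%. Both of these were added after the data were seen. Leaving out exposed replicates 1, 2 and 3 gave 41, 49 and 48 risers that entered the range, and control replicates 1, 2 and 3 gave 45, 36 and 60. For fallers that entered it the counts were 121, 96 and 110 without exposed replicates 1, 2 and 3, and 122, 89 and 134 without control replicates 1, 2 and 3. Fewer probes were called in these fits, 481 to 592 against 759, so a smaller count need not be a smaller share. Without exposed replicate 1, for example, 41 of 245 risers and 121 of 281 fallers entered the range. Taking the range over the 21 single control arrays put the controls inside on 242 risers and 195 fallers. That range always contains the range of the group means, so these counts could not have been lower than those above.

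A placement on arrays that did not choose the probes was also made, after the data were seen. Probes were chosen by a change of at least 2-fold in one dye and placed with the arrays of the other dye. Of the 186 risers chosen in Cy3, exposed animals lay above the range of the other Cy5 controls on 123 (66.1%), and the isobutanol controls lay inside it on 91 (48.9%), above it on 55 and below it on 40. Of the 133 risers chosen in Cy5, exposed animals lay above the range in Cy3 on 106 (79.7%) and controls inside it on 85 (63.9%). Of the 80 fallers chosen in Cy3, exposed animals lay below the range in Cy5 on 56 (70%) and controls inside it on 52 (65%). Of the 104 fallers chosen in Cy5, exposed animals lay below the range in Cy3 on 74 (71.2%) and controls inside it on 42 (40.4%). Over all probes exposed animals lay above the range on 19% in Cy5 and 18.9% in Cy3, and below it on 18.6% and 18.9%. The isobutanol controls lay inside it on 57.2% of all probes in Cy5 and 55.5% in Cy3, so their shares among the chosen probes fell on both sides of the background. On the values as deposited, changes of at least 2-fold therefore ended outside the usual control range on about 2 in 3 or more probes also by arrays that had no part in choosing them.

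The 4 named fallers into the range were chosen for controls above it and exposed animals inside it, so these positions are part of the choice. DM02667P2 read -0.64, -0.64 and -0.80 in exposed animals, against 3.01, 2.64 and 2.78 in controls. The drop of 3.58 ± 0.51 (adjusted p = 3.98e-06) began above every other control group, which lay between -1.57 and 1.12. Exposed animals differed from the mean of the other control groups by -0.30 ± 0.38 (adjusted p = 0.599), whereas the isobutanol controls differed from it by 3.27 ± 0.38 (adjusted p = 1.7e-08). The call for DM02667P2 ended with quantile normalization (-2.35, adjusted p = 0.0751). This probe was also called higher with cadmium, by 3.11, and lower with 3,4-dichlorophenol, at -1.81. DM05815P3 read -0.10, 0.07 and 0.27 in exposed animals and 1.35, 1.71 and 1.91 in controls, with the other control groups between -0.22 and 0.26. Its change was -1.61 ± 0.20 (adjusted p = 2.16e-07). DM11589P3 read -0.24, -0.16 and -0.31 in exposed animals and 1.25, 1.34 and 1.61 in controls (change -1.60 ± 0.23, adjusted p = 4.07e-06). DM15109P1 read 0.07, 0.18 and -0.43 in exposed animals and 1.14, 1.51 and 2.00 in controls (change -1.65 ± 0.31, adjusted p = 0.000202), a call that ended with equal spread (0.0705) and quantile normalization (0.145). With equal spread and with quantile normalization the change of DM05815P3 was -1.04 and -0.87, and that of DM11589P3 -1.06 and -0.98.

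The 4 named risers into the range, chosen for controls below it and exposed animals inside it, moved the other way. DM02011P1 read 0.01, 0.08 and 0.50 in exposed animals and -1.45, -1.91 and -1.15 in controls, a rise of 1.70 ± 0.27 (adjusted p = 2.01e-05). The other control groups lay between -1.30 and 0.73, so the controls were just below the range. DM12211P1 read 0.32, 0.20 and 0.41 in exposed animals and -0.81, -1.33 and -1.14 in controls (rise 1.39 ± 0.19, adjusted p = 2.19e-06). DM13197P1 read -0.27, -0.30 and -0.26 in exposed animals and -1.71, -1.52 and -1.05 in controls (rise 1.20 ± 0.17, adjusted p = 2.19e-06). The exposed level of DM02011P1 and DM12211P1 stayed called above the mean of the other control groups, by 0.59 ± 0.20 (adjusted p = 0.0243) and 0.45 ± 0.14 (adjusted p = 0.0164). On DM01619P2 the exposed level differed from that mean by 0.25 ± 0.19 (adjusted p = 0.361). With equal spread the rises of DM02011P1 and DM13197P1 were 1.13 and 0.74. On DM13197P1 the exposed level differed from the mean of the other control groups by 0.10 ± 0.12 (adjusted p = 0.611). DM01619P2 read -0.39, -0.25 and 0.21 in exposed animals and -1.46, -1.70 and -0.94 in controls. Its rise of 1.28 ± 0.26 (adjusted p = 0.000523) was lost with equal spread (0.0839) and quantile normalization (0.085). DM02011P1 and DM01619P2 were called lower with cadmium, at -1.42 and -1.50, and DM01619P2 also with 3-chloropropanol, at -0.91.

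At the threshold itself the calls were small and unstable. DM11462P1 rose by 0.30 ± 0.10 (adjusted p = 0.05), at 0.65, 0.79 and 0.60 in exposed animals and 0.37, 0.36 and 0.32 in controls. DM02270P1 rose by 0.53 ± 0.18 (adjusted p = 0.0497), DM01770P1 fell by 0.31 ± 0.11 (adjusted p = 0.05) and DM12519P1 fell by 0.45 ± 0.15 (adjusted p = 0.05). Each lost its call in 8 to 12 of the 13 or 14 alternative fits it entered. DM11462P1 also rose with 3-chloropropanol, 2,3,4-trichloroaniline, 3,4-dichlorophenol and cadmium, by 0.37, 0.47, 0.44 and 0.44, so a small change need not be an unshared one.

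Set against the other 7 chemicals, whose effects use control arrays of their own, the isobutanol effect differed from their mean effect on 392 probes (6.53%), 195 higher (3.25%) and 197 lower (3.28%). Scaling to equal spread gave 74 such calls, array weights 1352, quantile normalization 35, and there were 260 without exposed replicate 1 and 230 without control replicate 2. The largest difference was on DM07052P1, at 4.76 ± 0.46 (adjusted p = 1.06e-08). DM01862P3, DM03618P2 and DM08009P2 followed, at -4.31 ± 0.88, -3.83 ± 0.94 and -3.78 ± 0.80 (adjusted p = 0.00119, 0.00808 and 0.00188). For these fallers the mean is taken over chemicals with and without a called fall. DM01862P3 had effects of -6.15 with 3-chloropropanol, -4.24 with 3,4-dichlorophenol, -3.76 with cadmium and -2.97 with 2,3,4-trichloroaniline, all called, and of 0.19, 0.16 and -0.34 with aniline, 4-chloroaniline and 3,5-dichloroaniline, none of them called.

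The other chemicals' own effects were called on 8.72% of probes for 3-chloropropanol, 3.9% for 2,3,4-trichloroaniline, 2.95% for cadmium, 2.85% for 3,4-dichlorophenol, 0.0333% for 4-chloroaniline and 0% for aniline and 3,5-dichloroaniline. Over all probes the isobutanol effect correlated with that of 3,4-dichlorophenol at r = 0.584, with 3-chloropropanol at 0.518, with cadmium at 0.45 and with 2,3,4-trichloroaniline at 0.292. With 4-chloroaniline, 3,5-dichloroaniline and aniline r was 0.133, 0.104 and -0.127. All effects share the reference pool, and the correlations are descriptions over probes. By rank the coefficients were 0.419 for 3,4-dichlorophenol, 0.197 for 3-chloropropanol, 0.275 for cadmium and 0.0835 for 2,3,4-trichloroaniline, lower than r in each case. Of the 759 calls 117 were shared in sign with 3,4-dichlorophenol, which is 15.4% of the isobutanol calls and 68.4% of the dichlorophenol calls. With 3-chloropropanol 151 were shared, 19.9% of the isobutanol calls and 28.8% of the other alcohol's. With no other chemical shared 228 risers and 273 fallers a call of the same sign, which does not show that those chemicals left them unchanged. At the other end 9 risers and 15 fallers were called with the same sign for 4 other chemicals.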

How the data were processed

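Per the labels' protocols, RNA was labelled from 100 ng for 2-colour Agilent arrays against a universal reference mixed from control and exposed samples. The authors deposited log2 ratios of 6006 Daphnia probes and 27 control rows, already normalized, and the base 2 was inferred. Scanner, background correction, normalization and probe filter: not given in the sources used here. A spike-in control row was positive on 24 of 24 arrays with the sample in Cy5 and negative on 24 of 24 in Cy3, so the authors had already reversed the dye-swapped ones. Sample over reference is the likely direction, since for 420 probes with an SD of 0.6 to 1, the log2 mean ratio had a median of -0.07 as deposited and 0.43 turned.

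The table was used as deposited. Limma 3.58.1 in R 4.3.3 fitted 16 group means and dye over 48 arrays, with 31 residual degrees of freedom. Effects within a dye came from a fit of group by dye means with 16. Tests were two-sided, adjusted by Benjamini-Hochberg over 6006 probes and called under 0.05. The fit was tested on simulated data. Named probes were the largest changes within each placement class, the largest dye differences, the largest uncalled control departures, the calls nearest the threshold and the largest differences from other chemicals. Alternatives were array scaling, quantile normalization, array weights, dye, samples fitted, probe filter, prior, block and left-out arrays. The samples, lists and rules were chosen with earlier results of these data known. Figures used matplotlib 3.10.9 in Python 3.11.15.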

Additional observations from a re-analysis of the deposited data

Results flagged for a closer look

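The isobutanol effect differed from the mean effect of the other 7 chemicals, by a test of the difference itself, on 392 probes. The largest differences were 4.76 on DM07052P1, -4.31 on DM01862P3, -3.83 on DM03618P2 and -3.78 on DM08009P2 (log2, isobutanol effect minus mean effect of the others). DM07052P1 was called with isobutanol and with none of the other chemicals, whereas each of the others was also called lower with 4 of them. The cause of these differences was not tested.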

How the results depend on the processing

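Calls between exposed animals and controls numbered 222 after scaling to equal spread, 142 after quantile normalization and 1755 under array weights, and 481 to 592 with 1 isobutanol array left out. Isobutanol controls against the other controls gave 1078, 1064 and 3496 calls under the same 3 settings, 1522 when only probes more variable than the median were tested and 1714 to 2461 with 1 array left out. Exposed animals against the other controls gave 1220, 837 and 2851, and 1258 to 1827 with 1 array left out. The difference from the other chemicals' mean effect gave 74, 35 and 1352, and 230 to 330 with 1 array left out. The Cy3 minus Cy5 difference gave 2 calls with array weights, 0 with equal spread and quantile normalization, and 0 to 4 with 1 array left out. It could not be computed without control replicate 1 or exposed replicate 3, the lone array of its dye and group. Risers with controls inside the usual range numbered 76 of 122 (62.3%) with equal spread, 34 of 67 (50.7%) with quantile normalization, 242 of 378 with the range of 21 arrays and 88 to 120 with 1 array left out. The shares under the 2 scalings are higher than the 39.2% as deposited, and the wider range of 21 arrays could not give a lower one. Over all probes the share was higher too, at 66.7% and 66.6% against 47.2% as deposited. Fallers with controls inside the usual range numbered 57 of 100 (57%), 37 of 75 (49.3%), 195 of 381 and 57 to 68, against 24.7% as deposited. Risers that entered the range numbered 8 with equal spread, 7 with quantile normalization and 36 to 60 with 1 array left out, and fallers that entered it 28, 27 and 89 to 134. Over all probes 6.73% and 7.44% entered it from below under the 2 scalings, and 7.41% and 7.76% from above. The share of probes with the isobutanol controls outermost was 33.3% and 33.4% under the 2 scalings, an alternative added after seeing the data, and 51.6% to 54.5% with 1 control array left out. The uncalled effect of DM05830P2 changed sign to 0.11 without the dye term, 0.19 in the 6 isobutanol arrays alone and 0.41 with equal spread, and with 1 array left out to 0.02 and 0.04 without exposed replicates 1 and 2 and to 0.16 and 0.05 without control replicates 2 and 3, while it was -0.41 without control replicate 1. The causes were not tested.

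With chemical by replicate number as a block the 4 group contrasts gave 668, 2406, 1792 and 300 calls. Same-numbered isobutanol samples deviated together at r = 0.192, -0.258 and 0.23, and after adjustment for dye at -0.0772, -0.162 and 0.0973. The numbers were therefore not taken as a pairing. Among the 30 named probes that were called, the change was smaller by over 1.5 times on 24 with quantile normalization and on 8 with equal spread. For named probes, 380 of the alternative values kept direction and side of the threshold, 73 lost the call, 1 gained it and 7 changed sign, all 7 on DM05830P2. Ratios without brightness set a limit, since the distance of a fallen probe from background is unknown.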

Other observations

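The 27 control rows differed between exposed and control arrays of the same dye by -0.391 to 0.193 in Cy3 and by -0.377 to 0.908 in Cy5. The spike-in row E1A_r60_n11 differed by -0.0375 in Cy3 and by 0.539 in Cy5. Its part in the probe results was not tested.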
